A study of Mus musculus with 6 samples.

Results

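The genes described here encode the protein parts of the spliceosome and the SR proteins that help it choose splice sites, in a mouse B cell lymphoma line with a hairpin named for the transcription factor TFII-I. They were chosen by symbol: every gene whose annotated symbol begins with Snrp, Snrnp, Sf3a, Sf3b, Prpf, Srsf or the older Sfrs, or with Lsm and a digit. The rule matched 59 genes of 19057 with a symbol on the array, through 127 probes, and 50 of the 59 were measured, among 7209 measured genes in all. A gene counted as measured where 1 of its probes or more exceeded the estimated background, 6.61 on the log2 scale, in at least 3 arrays. Groups of Wehi-231 cells were compared, with 3 arrays each: cells with the hairpin labelled shTFII-I, and cells with the hairpin labelled shCT. Wehi-231 is a B cell lymphoma line from a (BALB/c x NZB)F1 mouse, and both groups were grown in DMEM with 10% FBS. The labels name no hairpin sequence, clone, vector or time after its introduction, and leave unstated if each array came from its own culture. All p-values therefore rest on the spread of these samples alone, and that spread may be technical.

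Introns are removed by small nuclear ribonucleoproteins (snRNPs), each built on a small RNA. U1 marks the start of an intron, U2 the branch site, and the U4/U6.U5 tri-snRNP brings in the catalytic core, while a ring of Sm or LSm proteins holds each RNA. A rare class of introns is recognised by U11 and U12 in place of U1 and U2, and the proteins specific to the joint U11/U12 particle serve that class alone, while its Sm and SF3b proteins are shared with the common spliceosome. SR proteins bind exons through RNA recognition motifs and recruit the spliceosome through domains rich in arginine and serine; several of them control their own mRNA through alternative exons. TFII-I, encoded by Gtf2i, binds initiator elements and E-boxes at promoters, and the series deals with its part in bringing CTCF to promoters.

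The target of the hairpin could not be checked, since its only named probe, at 6.40, 6.53 and 6.44 in the shTFII-I arrays and 6.47, 6.56 and 6.41 in the shCT arrays, lay below the background level throughout. Of 9 B cell markers 6 had a probe and 5 were measured, among them Cd79b, part of the B cell receptor. Pax5 lay at the background level, with means of 6.64 in shTFII-I and 6.58 in shCT cells. Cd22 was dim too, at 6.88 and 6.89. The log2 levels of the 5 summed to 40.07 to 40.74 in shTFII-I and 37.95 to 40.70 in shCT arrays. The probes of Cd79b averaged 11.42 and 11.09 in shTFII-I and 10.68 and 10.26 in shCT cells, differences of 0.74 ± 0.47 and 0.83 ± 0.18 (SE), while those of the other 4 lay within 0.1 of 0. Their part in the results below was not tested. None of 4 T cell, 3 erythroid (1 with a probe) and 3 fibroblast markers was measured, and 1 of 5 myeloid markers, Csf1r, lay at the background level (6.53 to 6.66 over both groups).

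The promoters of 4 genes are shown, picked from the genes whose values separated the hairpins without overlap. Snrnp25, Zcrb1 and Zmat5 encode proteins of the U11/U12 particle and were lower in all shTFII-I arrays. Srsf5, an SR protein gene, was higher in all of them. Zcrb1 and Zmat5 fall outside the symbol rule and come from a list of other U11/U12 factors. In all the wider splicing lists 10 genes separated, 4 higher and 6 lower, and the rest of these, such as Gemin4, Rnps1 and Clk1, are not shown. Each sequence, from RefSeq on GRCm38.p6, runs 5′ to 3′ on the gene's strand from 250 bases before the annotated start to 50 after it. The windows are chr11:32205165-32205464 (plus strand), chr15:93398285-93398584 (minus), chr11:4704406-4704705 (plus) and chr12:80945249-80945548 (plus). Capitals mark CCAAT boxes (CCAAT) and ETS motifs (CCGGAAG) on either strand.
Snrnp25: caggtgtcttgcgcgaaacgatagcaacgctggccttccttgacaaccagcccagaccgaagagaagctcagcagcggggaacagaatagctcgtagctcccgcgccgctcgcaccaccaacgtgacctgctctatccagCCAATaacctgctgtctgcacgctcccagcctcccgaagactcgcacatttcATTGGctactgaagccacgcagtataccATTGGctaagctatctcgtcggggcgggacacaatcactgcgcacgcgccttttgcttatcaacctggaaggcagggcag
Zcrb1: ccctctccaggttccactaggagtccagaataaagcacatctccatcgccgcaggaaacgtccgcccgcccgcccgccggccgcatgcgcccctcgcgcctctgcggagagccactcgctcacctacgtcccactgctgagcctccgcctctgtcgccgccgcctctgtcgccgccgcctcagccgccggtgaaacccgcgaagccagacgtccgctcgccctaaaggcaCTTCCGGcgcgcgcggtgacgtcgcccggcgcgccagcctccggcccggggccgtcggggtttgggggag
Zmat5: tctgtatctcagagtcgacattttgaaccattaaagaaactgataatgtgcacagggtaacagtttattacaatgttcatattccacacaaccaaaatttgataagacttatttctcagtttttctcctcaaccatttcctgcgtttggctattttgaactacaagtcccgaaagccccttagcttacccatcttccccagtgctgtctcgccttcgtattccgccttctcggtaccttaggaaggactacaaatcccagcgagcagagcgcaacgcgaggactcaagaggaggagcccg
Srsf5: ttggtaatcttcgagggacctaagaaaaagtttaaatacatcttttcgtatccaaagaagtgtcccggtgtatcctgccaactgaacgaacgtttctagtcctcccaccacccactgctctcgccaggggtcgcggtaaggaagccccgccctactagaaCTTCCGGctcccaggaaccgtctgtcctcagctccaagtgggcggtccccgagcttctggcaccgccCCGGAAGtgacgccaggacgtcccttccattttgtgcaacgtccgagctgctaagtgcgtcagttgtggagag

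The Snrnp25 window holds 3 CCAAT boxes, a number reached or passed in 3.37% of all 32851 promoter windows of the table, and Srsf5 holds 2 ETS motifs. No such share was taken for measured genes alone. None of the 4 windows holds the E-box CACGTG or a core of the CTCF motif, taken as CCNNNAGNGGGC. Of the 50 measured splicing genes 42 had a window. The E-box was found in 3 of the 42 (7.14%), Prpf3, Prpf40b and Snrpa, against 12.8% of the 5948 measured genes with a window and 7.15% of all windows. The CTCF core was found in 0 of the 42, against 6.39% of measured genes and 3.21% of all windows. The ETS motif was found in 15 (35.7%), against 24% of measured genes and 8.86% of all windows, and the CCAAT box in 21 (50%), against 44% and 37.4%. The last pair of motifs was picked after the sequences were seen, and the motifs do not overlap in the windows shown. These are matches of letters only and show no binding.

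None of the 50 genes passed limma's test over all genes at an adjusted p of 0.05, as none of all 7209 did (0%). With a prior that follows intensity and is fitted robustly, 0.0832% of all genes passed, none of them among the 50. At an unadjusted p under 0.05 there were 3 of 50, Srsf5 and Srsf1 higher and Snrnp25 lower in shTFII-I cells, or 6% against 6.64% of all genes (3.09% higher and 3.55% lower). This count became 9 (18%, against 7.02% of all genes) without the second shCT array and 6 (12%, against 5.3%) without the third shCT array. Without the third shTFII-I array it became 5 (10%, against 7.49%). The groups did not overlap in 2 of 50, Snrnp25 and Srsf5, against 11.9% of all genes (5.49% higher and 6.38% lower). Differences of at least 0.3 were found in 13 of 50, against 1422 of all 7209 genes (19.7%). The splicing genes were also brighter and had a larger SD within a group, with a median of 0.28 against 0.19 for all genes. The part of this in the count was not tested. In the mean 28 genes were higher and 22 lower (44%, against 50% of all genes) in shTFII-I cells, with a median log2 difference of 0.05, against 0.0003 over all genes.

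**Figure D1:**
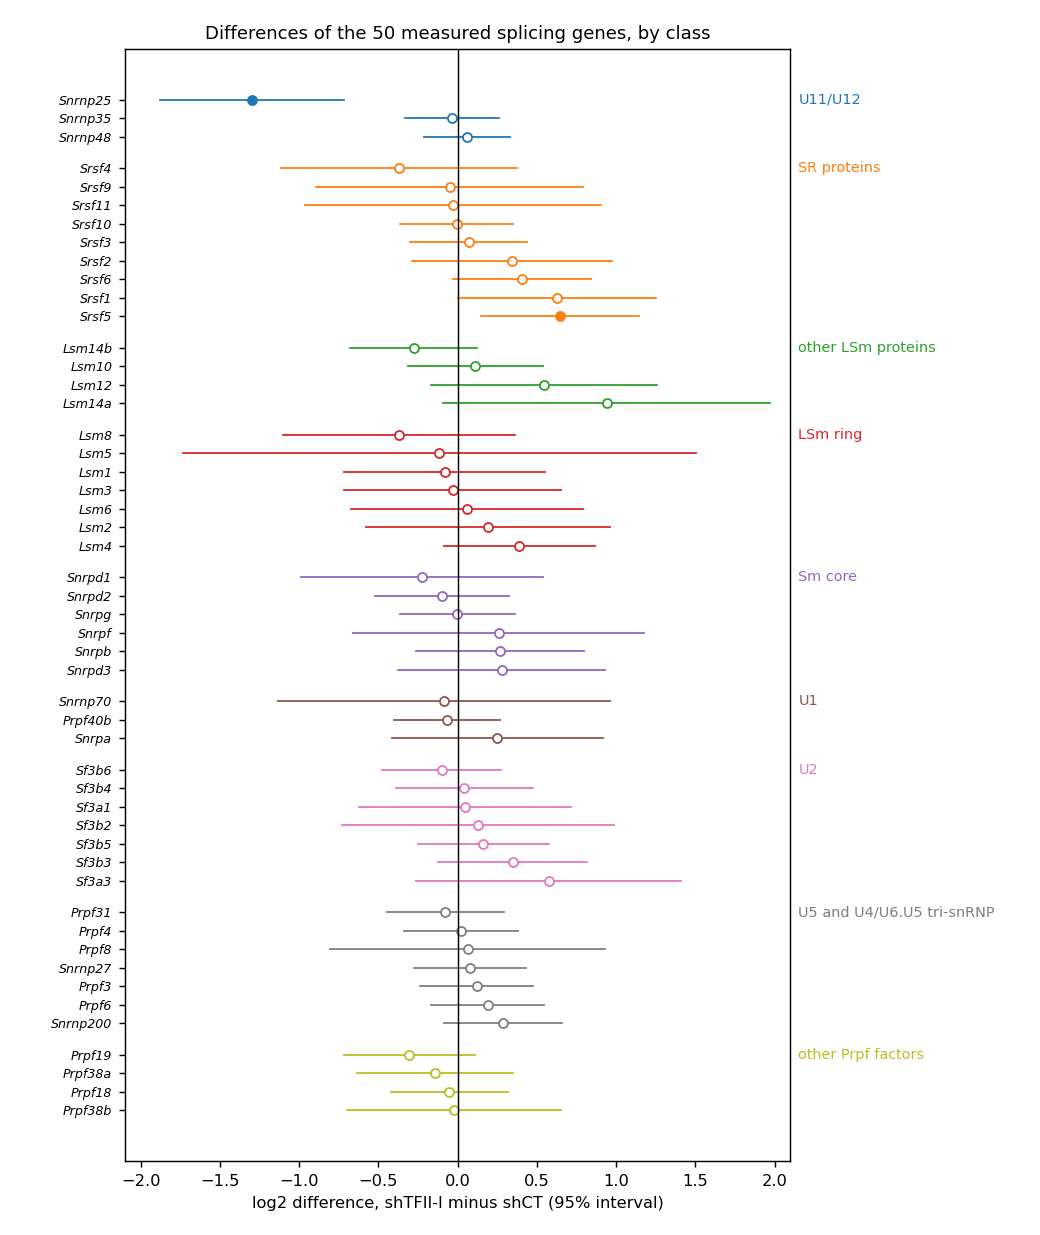
Log2 difference (shTFII-I minus shCT) of each of the 50 measured genes, with its 95% interval from limma, grouped by class; filled points mark genes whose groups do not overlap. Snrnp25 stands at -1.29, and most other intervals span 0.

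Among U11/U12 proteins, Snrnp25 was the gene that stood farthest apart of all 50. Its log2 intensity was 10.45, 10.39 and 9.81 in the shTFII-I arrays, against 11.58, 11.11 and 11.84 in the shCT arrays. Every shTFII-I array lay below every shCT array, with a gap larger than the SD of either group. The means were 10.22 ± 0.36 in shTFII-I and 11.51 ± 0.37 in shCT cells (SD, n = 3 each). On the log2 scale the hairpins differed by -1.29 ± 0.25 (SE), a 2.45-fold lower intensity with shTFII-I, with a limma adjusted p of 0.362 over all genes. In RNA of whole cultures, fewer cells of a type and less RNA per cell cannot be told apart. It was ranked 3 of 7209 by size among differences toward lower values, and 22 by p. With another processing setting or with 1 array left out, the difference ran from -1.49 to -1.08 and its adjusted p in limma from 0.205 to 0.909. A second Snrnp25 probe lay at or below background in all arrays (means of 6.53 in shTFII-I and 6.50 in shCT), so that the difference rests on 1 probe.

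The other U11/U12 genes matched by the rule were dim. Snrnp35 was at 7.02, 7.08 and 7.26 in shTFII-I and 7.22, 7.15 and 7.10 in shCT arrays, overlapping throughout. Snrnp48 was at 6.78, 6.70 and 6.77 in shTFII-I and 6.75, 6.65 and 6.67 in shCT arrays, just over the background level. Their differences were -0.04 ± 0.13 and 0.06 ± 0.11 (log2, SE), with 95% intervals from -0.33 to 0.26 and from -0.21 to 0.33. Because the deposited values keep their background, differences of such dim genes are compressed.

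Of 6 further factors listed with the minor spliceosome 3 were measured, 2 lower and 1 higher in the mean. Zcrb1, an RNA-binding protein of the U11/U12 particle, was at 9.02, 9.46 and 9.14 in shTFII-I and 9.47, 9.93 and 10.19 in shCT arrays. The groups were apart, though the second shTFII-I and the first shCT array were nearly equal. Its difference was -0.65 ± 0.22 (log2, SE; limma adjusted p = 0.657). Zmat5, a zinc finger protein of the same particle, was at 7.89, 7.66 and 7.56 in shTFII-I and 8.09, 7.90 and 8.25 in shCT arrays. Here too the groups only just separated, with a difference of -0.38 ± 0.15 (limma adjusted p = 0.732). Also measured was Txnl4b, a relative of a U5 protein, which differed by 0.02 ± 0.16, and the single probe of Rnpc3, which bridges the U11 and U12 RNAs, did not pass the background filter. Over all genes the groups did not overlap in 11.9%, with 6.38% lower in shTFII-I cells. None of these U11/U12 genes passed the test.

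**Figure D2:**
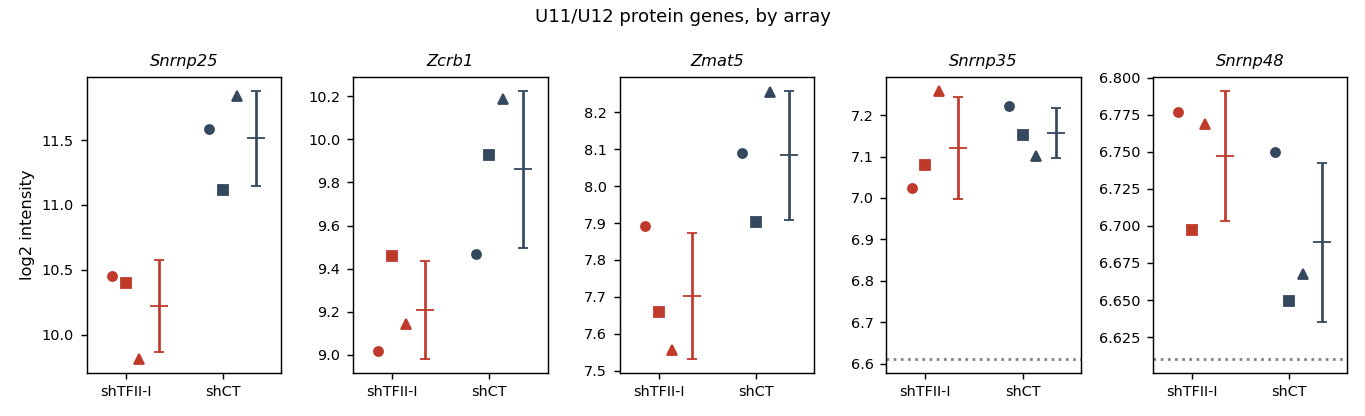
Log2 intensity of 5 U11/U12 protein genes in each array (circle, square and triangle for replicates 1, 2 and 3), with mean and SD (n = 3) beside the points; the dotted line is the background level, and each panel has its own scale. Snrnp25, Zcrb1 and Zmat5 are lower in every shTFII-I array, Zcrb1 and Zmat5 only just, while Snrnp35 and Snrnp48 overlap.

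SR protein genes were 5 higher and 4 lower in the mean of 9 measured, with a median difference of 0.07. Srsf5 was at 10.762, 10.997 and 10.774 in shTFII-I and 9.80, 10.60 and 10.20 in shCT arrays. All shTFII-I arrays lay above all shCT arrays, which were spread more widely. Its difference was 0.65 ± 0.21 (log2, SE), 1.56-fold, with a limma adjusted p of 0.657 over all genes. Its second probe was at 10.07, 10.22 and 9.53 in shTFII-I and 9.98, 10.01 and 9.52 in shCT arrays, a difference of 0.10 ± 0.22, so that the separation was seen with the brighter probe only.

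Srsf1, the founding SR protein, was at 12.07, 12.46 and 11.79 in shTFII-I and 11.81, 11.66 and 10.98 in shCT arrays. One shTFII-I array fell just below the highest shCT array. The difference was 0.63 ± 0.26 (limma adjusted p = 0.746), and 0.28 ± 0.40 with the second probe. Srsf6 was at 9.60, 9.62 and 9.44 in shTFII-I and 8.85, 9.10 and 9.49 in shCT arrays, a difference of 0.41 ± 0.18 with the third shCT array among the shTFII-I values. Its second probe, near background, gave -0.04. Srsf2 differed by 0.34 ± 0.27 and Srsf4 by -0.37 ± 0.32, while Srsf3, Srsf9, Srsf10 and Srsf11 lay between -0.05 and 0.07.

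**Figure D3:**
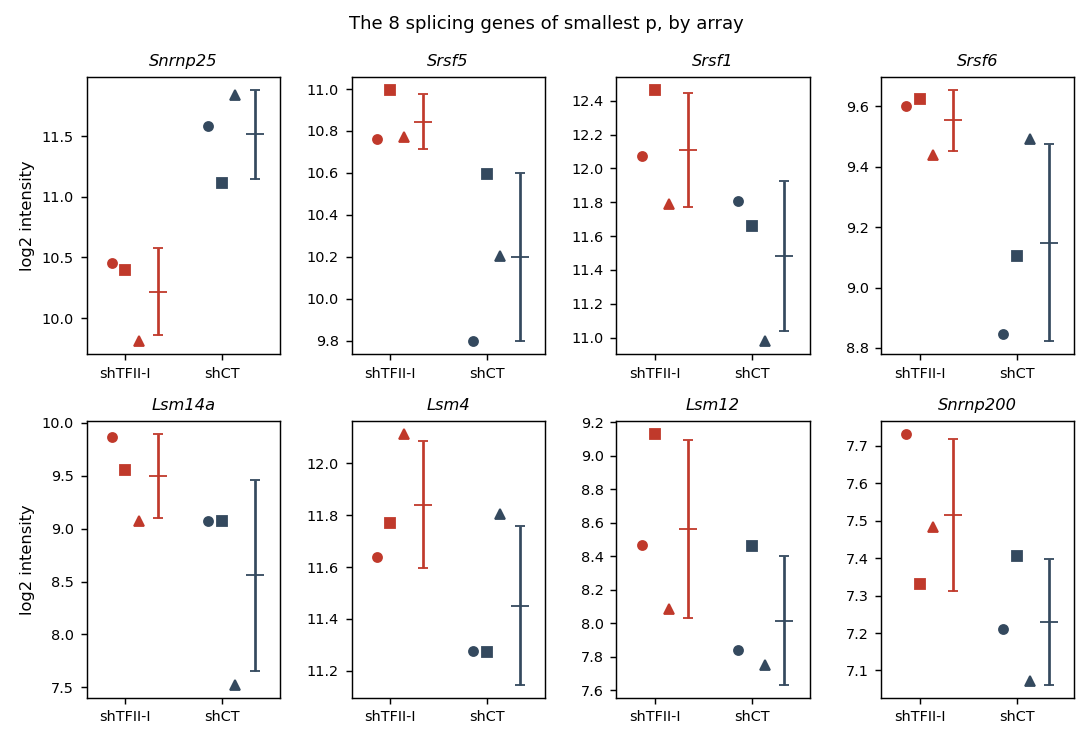
Log2 intensity of the 8 genes of smallest p in each array (circle, square and triangle for replicates 1, 2 and 3), with mean and SD (n = 3) beside the points; each panel has its own scale. Snrnp25 and Srsf5 separate the hairpins, and the other 6 genes overlap.

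The probes of Srsf11 disagreed most among SR genes. With its brightest probe it was at 9.38, 8.86 and 7.70 in shTFII-I and 8.91, 8.50 and 8.61 in shCT arrays, a difference of -0.03 ± 0.40. A second probe was at 9.10, 8.65 and 8.96 in shTFII-I and 8.24, 8.18 and 7.76 in shCT arrays, without overlap. With every named probe past the filter tested, this probe differed by 0.84 ± 0.18, with an unadjusted p of 0.00241 and an adjusted p of 0.47 over 10585 probes in limma. Another probe, close to background, differed by -0.06. Which transcripts each probe detects is not given in the sources used here.

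More than 1 probe passed the filter for 23 of the 50 genes, and in 15 of these the probes differed in sign. For 1 of the 15, Srsf11, a probe was at an unadjusted p under 0.05. For Snrpd1, an Sm protein, both probes were lower in shTFII-I cells, by -0.23 with the probe used and -0.69 ± 0.25 with the other (limma adjusted p = 0.734 over all probes). For Snrpb, another Sm protein, the brightest probe differed by 0.27 and the others by -0.24 and -0.32. For Prpf19, a ubiquitin ligase that gives the Prp19 complex its name, the 3 probes differed by -0.30, -0.64 and 0.09.

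**Figure D4:**
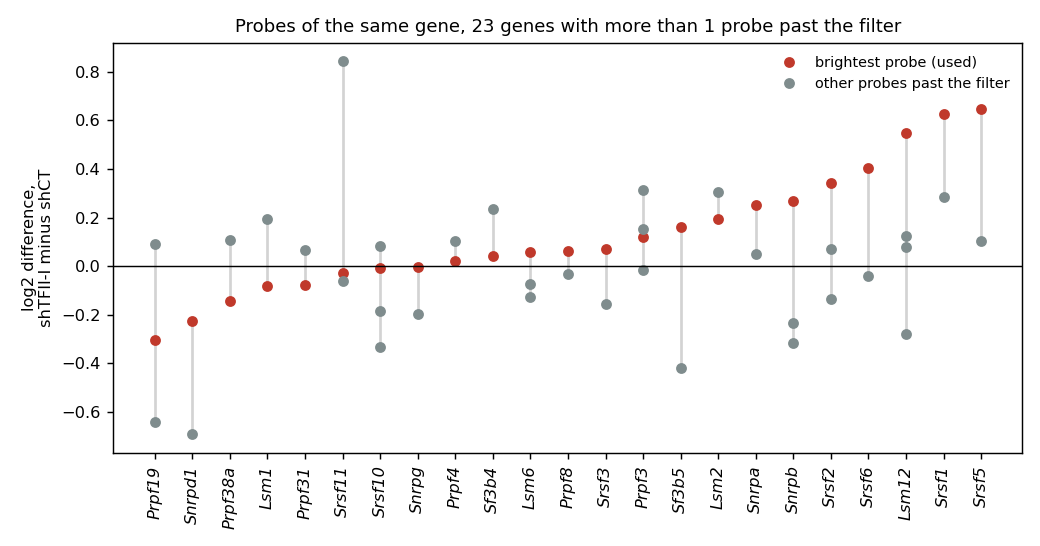
Log2 difference (shTFII-I minus shCT) of every probe past the filter, for the 23 genes with more than 1; red marks the brightest probe, the one used for the gene, and grey the others. Probes of one gene often lie on both sides of 0, and Srsf11 spans from -0.06 to 0.84.

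Sm core genes, whose products form the ring of U1, U2, U4 and U5, were split 3 to 3, with a median of 0.13 that became -0.10 with the mean of each gene's probes and -0.15 with every probe tested. Mean levels of the 6 measured ran from 10.51 to 11.93 in shTFII-I and from 10.23 to 12.03 in shCT cells. Differences ran from -0.23 for Snrpd1 to 0.28 ± 0.28 for Snrpd3. Snrpg was the closest to equal, at 11.30, 11.57 and 11.12 in shTFII-I and 11.44, 11.28 and 11.27 in shCT arrays.

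In the U1 class 3 of 4 genes were measured. Snrpa, which binds a stem-loop of U1 RNA, differed by 0.25 ± 0.28 (0.51 without the first and 0.03 without the second shTFII-I array), and Prpf40b by -0.07 ± 0.14 close to background. Snrnp70, another U1-specific protein, was at 8.80, 8.25 and 7.22 in shTFII-I and 8.27, 8.72 and 7.53 in shCT arrays. Its arrays ranged more widely within each group than the means differed, by -0.09 ± 0.44.

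U2 genes were higher in the mean in 6 of 7, with a median of 0.13. Of these, Sf3b5 differed by 0.16 ± 0.18 with the probe used and by -0.42 ± 0.23 with another of similar brightness. Sf3b4 kept its sign with its other probe, at 0.24. Sf3a3, a subunit of the SF3a complex, was at 10.91, 11.19 and 10.21 in shTFII-I and 10.08, 10.85 and 9.67 in shCT arrays, a difference of 0.57 ± 0.36. The groups overlapped, with the third array the lowest of each, and the difference was 0.90 without the second and 0.31 without the third shCT array. Sf3b3, a scaffold of the SF3b complex, differed by 0.35 ± 0.20. The 1 gene lower in the mean was Sf3b6, near the branch point in the complex, at -0.10 ± 0.16. Tri-snRNP genes were likewise higher in 6 of 7, all by little, with a median of 0.08. The largest was Snrnp200, the helicase that unwinds U4 from U6, at 7.73, 7.33 and 7.48 in shTFII-I and 7.21, 7.41 and 7.07 in shCT arrays, a difference of 0.29 ± 0.16. Prpf6, a bridge between U5 and U4/U6, differed by 0.19 ± 0.15 and Prpf8, the protein at the catalytic centre, by 0.06 ± 0.37. None of these passed the test. All 4 of the other Prpf genes were lower in the mean with the probe used, from -0.30 ± 0.18 for Prpf19 to -0.02 for Prpf38b, with Prpf38a at -0.14 ± 0.21. The other Prpf38a probe, close to background, was higher without overlap, by 0.11 ± 0.11, and 1 Prpf19 probe gave 0.09. The direction in this class thus depends in part on the choice of probe.

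The LSm ring genes serve U6 RNA in the nucleus and, with Lsm1 in place of Lsm8, mRNA decay in the cytoplasm. They were higher in 3 and lower in 4 of 7. Lsm4 was at 11.64, 11.77 and 12.11 in shTFII-I and 11.28, 11.27 and 11.81 in shCT arrays, a difference of 0.39 ± 0.20 with 1 shCT array above 2 shTFII-I arrays. Lsm8 differed by -0.37 ± 0.31, and by -0.66 without the first and -0.04 without the third shTFII-I array. Lsm5 varied most within its groups, at 10.78, 9.87 and 9.26 in shTFII-I and 8.50, 10.76 and 10.98 in shCT arrays, so that its difference of -0.12 had a standard error of 0.69.

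Among the other LSm proteins, Lsm14a, an RNA-binding protein of P-bodies, had the largest difference toward higher values of the 50 genes. It was at 9.86, 9.56 and 9.07 in shTFII-I and 9.08, 9.08 and 7.52 in shCT arrays. The lowest shTFII-I array fell just short of 2 of the shCT arrays, and the third shCT array lay far below all others. The difference was 0.94 ± 0.44 (limma adjusted p = 0.762), and 0.42 without the third shCT array. Lsm12 differed by 0.55 ± 0.30 with its brightest probe and by -0.28 to 0.12 with 3 others. Lsm14b, the relative of Lsm14a, differed by -0.28 ± 0.17, and Lsm10, of the U7 snRNP that processes histone mRNA, by 0.11 ± 0.18.

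No probe of the remaining 9 genes passed the filter: Snrpe, Prpf39, Sf3a2, Sf3b1, Snrpb2, Snrnp40, Prpf4b, Lsm11 and Srsf12. Their 12 probes had means of 6.40 to 6.62 in shTFII-I and 6.37 to 6.59 in shCT cells, and exceeded the level in at most 2 arrays. Sf3b1 and Snrpe encode core parts of the spliceosome, and their levels were not measured by these probes.

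Single arrays also differed over the splicing genes. The third shCT array was the lowest of the 6 in 15 of 50 genes (30%), against 18.9% of all genes, and the first shTFII-I array the highest in 14 (28%), against 12.2%. The second shCT array was the highest in 0, against 8.1%. The SD within a group had a median of 0.28 for the splicing genes and 0.19 for all genes, and their mean levels a median of 9.55 and 7.49. Over the 50 genes the most alike pair of arrays, with a Pearson r of 0.981, was the first shTFII-I and the second shCT array. The least alike pair was the first and the third shCT arrays at 0.907, both of one group. The part of single arrays in the differences above was not tested.

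The wider splicing machinery outside the symbol rule was measured with 87 of 106 listed genes, 42 higher and 45 lower in the mean, and none passed. At an unadjusted p under 0.05 there were 8 (9.2%, against 6.64% of all genes), and groups did not overlap in 10 (11.5%, against 11.9%). The largest in the list of snRNP assembly was Gemin4, of the SMN complex that loads Sm rings, at 0.57 ± 0.18 (limma adjusted p = 0.645), with other probes at 0.01 and -0.15. Tgs1, which methylates the cap of snRNAs, differed by 0.32 ± 0.17, with other probes at 0.07 and -0.01. Among SR kinases and SR-related proteins, Rnps1, of the exon junction complex, was at 9.87, 9.82 and 9.59 in shTFII-I and 9.46, 9.21 and 9.25 in shCT arrays, a difference of 0.45 ± 0.14 without overlap. Its other probe gave -0.04. Clk1, a kinase of SR proteins, was lower without overlap by -0.36 ± 0.14, with means of 7.58 in shTFII-I and 7.93 in shCT cells.

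Of the hnRNP proteins, which often oppose SR proteins, 9 were higher and 10 lower. Hnrnpm differed by 0.57 ± 0.23 without overlap (0.09 and 0.17 with its other probes) and Hnrnpl by 0.51 ± 0.22. Tri-snRNP factors outside the rule were lower in the mean in 6 of 7, with a median of -0.26, Cd2bp2 at -0.44 ± 0.31 and Usp39 at -0.26 ± 0.18. The other Usp39 probes gave 0.06 to 0.32. Eftud2 gave -0.27 with the probe used and 0.06 and 0.23 with others. Sart3 gave -0.11 and, with its other probe, -0.01. Txnl4a gave 0.17 with the probe used and -0.36 to 0.22 with others. The count thus depends in part on the choice of probe. The 8 measured U2 and branch site factors were split 4 to 4, with Dhx15, a helicase, at -0.64 ± 0.33 (0.03 with its other probe) and U2af2, which binds the polypyrimidine tract, at 0.27 ± 0.17 (-0.10 with its other probe). In the Prp19 complex and catalytic step factors 8 were higher and 7 lower, with Cdc5l at 0.44 ± 0.18 and Bcas2 at -0.25 ± 0.14. Other Cdc5l probes gave 0.87 and 0.06. Genes once named Sfrs and since renamed were split 4 to 4, with Sugp2 at -0.37 ± 0.14 and Scaf4 at 0.31 ± 0.19. No probe carried an Sfrs symbol in the annotation.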

How the data were processed

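Per the labels' protocols, each of 6 RNA samples gave biotin cRNA for an Illumina bead array. The authors' deposited table holds log2 intensities of 45281 probes. From the values, the arrays had been quantile normalized (sorted values differ by at most 0.0012) with no sign of background subtraction. The submitters' processing notes name limma, with no version. Nothing used here states their filter or background correction. Another deposited table has 12 columns whose headings match no sample, and it was left aside.

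The background level was set where 1% of the estimated background (values below the mode of 6.45, mirrored) exceeds it. Of 45281 probes 34885 carried 1 gene symbol, 18 several and 10378 none, and 34807 were matched by Entrez ID to symbols of GRCm38.p6. The brightest passing probe stood for a gene. limma 3.58.1 in R 4.3.3 (lmFit, eBayes with constant prior variance) compared shTFII-I with shCT, with Benjamini-Hochberg adjustment over 7209 genes and a threshold of 0.05. Differences are shTFII-I minus shCT, with moderated standard errors. For probes not chosen, errors come from the fit of all named probes past the filter. Both errors given for Cd79b come from a fit of all 45281 probes, dim ones included, and are not strictly comparable with the others. The 95% intervals reached a median of 0.41 (log2) to either side; precision is limited by having 3 arrays a group. The model was also run on simulated data in which every gene had the same spread. Spread differs between genes in these data, so that run does not show how the model performs here.

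The genes and lists were chosen with earlier results of these data known. Named genes are the 12 of smallest p, 2 of smallest p per class and per wider list, all U11/U12 genes matched by the rule, and genes whose probes differ in sign with 1 at an unadjusted p under 0.05; others give the extremes of a class or were named after their values were seen. Alternatives covered the filter, background level and correction, normalization, prior, array weights, choice of probe, replicate block and each array left out.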

Additional observations from a re-analysis of the deposited data

How the results depend on the processing

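With each of 16 alternatives, none of the splicing genes passed the threshold. Of the other counts, genes without overlap were 1 with the mean of the probes (2%, against 12.3% of all genes) in place of 2. With every named probe tested, 5 of 84 probes were without overlap (5.95%, against 11.5% of all 10585 probes) and 5 were at an unadjusted p under 0.05 (5.95%, against 6.41%). The replicate block gave 7 genes at an unadjusted p under 0.05 (14%, against 7.06% of all genes). With 1 array left out, the count at an unadjusted p under 0.05 ran from 3 to 9 (351 to 540 of all genes), the count without overlap from 4 to 11, which fewer arrays make easier (1375 to 1741 of all genes), and the median difference from 0.01 to 0.11. Deviations of arrays that share a number correlated at -0.014, 0.003 and 0.10 over all genes. Those of arrays with different numbers correlated at -0.111 to 0.13. With only 3 arrays a group, these values cannot decide if arrays were paired by replicate number. The block changed no call at the threshold. Of the differences of named genes, 599 kept their sign and side of the threshold and 8 changed sign. Srsf11 became 0.23 with array weights and 0.25 with the mean of the probes, and lay between -0.40 and 0.44 when single arrays were dropped. With the mean of the probes Snrpb became -0.10 and Usp39 0.0913. With 1 array left out Snrnp35 ran from -0.11 to 0.0117 and Prpf40b from -0.15 to 0.0007. The median turned sign with 1 array left out in the Sm core (-0.12 to 0.18), U1 (-0.15 to 0.21), U2 (-0.09 to 0.24), U11/U12 (-0.11 to 0.0117), tri-snRNP (-0.0023 to 0.15) and LSm ring (-0.09 to 0.24) classes, and kept it in the SR, other LSm and other Prpf classes. Of 38 named genes, 28 moved by over 1.5 times with 1 array left out, 19 of them among the 22 named by the symbol rule. For these the cause was not tested. No block for slides could be run, as no source used here names the slides. The 3 arrays of a group and background left in dim probes limit what can be seen.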

Other observations

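Genes beside Snrnp25 on the chromosome were looked up after its value was seen, by gene order in GRCm38.p6. Of the 10 nearest protein-coding genes, 5 on each side, 6 were measured, and the groups did not overlap in 4, 3 lower and 1 higher in shTFII-I cells, against 11.9% of all genes. Rhbdf1, the next gene on one side, had means of 8.02 ± 0.45 in shTFII-I and 8.61 ± 0.12 in shCT cells (SD, n = 3 each), a difference of -0.58 ± 0.23 (log2, SE; limma adjusted p = 0.725). Nprl3, of the GATOR1 complex, differed by -0.25 ± 0.13, with means of 6.94 in shTFII-I and 7.19 in shCT cells. Nsg2 differed by -0.29 ± 0.13, with means of 6.57 in shTFII-I, below the background level, and 6.86 in shCT cells. It passed the filter through its brighter shCT arrays, which favours a lower value in shTFII-I. A difference of the region as a whole was not tested. Mpg, a DNA glycosylase between Rhbdf1 and Nprl3, differed by -0.09 ± 0.13 with overlapping groups, and Cpeb4 was higher by 0.05 ± 0.11, close to background. None passed the test.

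Ptbp1, the polypyrimidine tract binding protein that represses many exons, was picked after its values were seen. One of its probes was at 8.85, 9.10 and 8.79 in shTFII-I and 9.79, 9.91 and 9.67 in shCT arrays. All shTFII-I arrays lay clearly below all shCT arrays, by -0.88 ± 0.13 (log2, SE), with a limma adjusted p of 0.267 over 10585 probes. The brightest Ptbp1 probe differed by 0.06, and the others from -0.37 to 0.32.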
